A study of Mus musculus with 5 samples.

Results

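The guidance genes of mouse liver were examined in non-parenchymal cells. All gene symbols that begin as a semaphorin (Sema), plexin (Plxn), netrin (Ntn), Unc5, Robo, Slit, ephrin (Efn), Eph receptor (Eph) or Flrt gene were taken, which gave 70 genes of 19736 measured. They comprise 20 semaphorins, 9 plexins, 3 netrins, 4 Unc5 receptors, 3 Slits, 4 Robo receptors, 8 ephrins, 14 Eph receptors and 3 Flrt proteins. Another 2, Unc50 and Unc5cl, match by name only and are not guidance receptors.

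The study set mice with partial inferior vena cava ligation (pIVCL), an operation that impedes venous outflow from the liver, against sham-operated mice. All were wild-type males that had surgery when 9 weeks old, and livers were taken 2 weeks after it. Livers were perfused with pronase and collagenase, hepatocytes were depleted by slow centrifugation and dead cells and erythrocytes by a density gradient, so hepatocytes are not represented in proportion. There were 3 pIVCL libraries and 2 sham libraries of single-cell RNA, captured on the BD Rhapsody system. The labels of pIVCL 1, sham 1 and sham 2 give batch 2021.3, and those of pIVCL 2 and pIVCL 3 give batch 2021.7, so batch and surgery overlap. The labels do not say that the libraries came from separate mice, and p-values measure the spread between these libraries, which may be technical.

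The pIVCL libraries held 2680, 5000 and 3344 cells and the sham libraries 4735 and 4056 cells. Median depth was 4226.5, 3878.5 and 2439.5 molecules per cell in the pIVCL libraries, against 5416 and 5125 in the sham libraries. Any pair of libraries shared 8 to 30 cell barcodes. After filters, 2523, 3379 and 2746 pIVCL cells and 4308 and 3716 sham cells were grouped into cell classes by clustering, with the guidance genes kept out of the genes used to cluster. All 8 endothelial markers were detected in the endothelial class of every library, at 1.83, 1.86 and 1.74% of its molecules after pIVCL and 2.07 and 1.96% after sham surgery, and all 8 Kupffer markers in the Kupffer class. Clusters took their class from these markers, so this describes the classes and does not test them. The 8 endothelial markers were also detected in the Kupffer class of every library, at 0.0634 to 0.0938% of its molecules. Levels are given as counts per 1e+06 molecules of a class (CPM), and class sums were compared by edgeR's quasi-likelihood test over all genes, with Benjamini-Hochberg adjustment and a threshold of 0.05.

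Guidance genes encode secreted or membrane-bound cues and their receptors, first known from growing axons and also used by blood vessels. Semaphorins signal through plexins, and most secreted class 3 semaphorins also need neuropilins. Netrins bind Dcc, neogenin and the Unc5 receptors, Slits bind Robo receptors, and ephrins and Eph receptors signal in both directions where cells touch. Flrt proteins are membrane proteins that bind Unc5 receptors and latrophilins. In vessels, ephrin-B2 is a classical arterial gene and EphB4 a classical venous gene, and Robo4 and plexin-D1 are known from endothelium.

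Guidance genes made up a larger share of the molecules of endothelial cells than of stellate cells, fibroblasts or Kupffer cells. Their summed share in endothelial cells was 0.509, 0.571 and 0.482% in the pIVCL libraries and 0.593 and 0.575% in the sham libraries. In stellate cells and fibroblasts it was 0.386, 0.370 and 0.359% in the pIVCL libraries and 0.403 and 0.361% in the sham libraries. In Kupffer cells, the resident macrophages, it was 0.115, 0.104 and 0.0930% in the pIVCL libraries and 0.0988 and 0.101% in the sham libraries. Of the 70 genes, 52 had at least 100 molecules over all retained cells, and 18 had fewer, from Plxna3 with 88 down to Epha6 with 1 and Epha8 with 0.

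The genes divided by cell class. Among the 52, the mean CPM over the 5 libraries was highest in endothelial cells for 13, in mesothelial cells for 12, in stellate cells and fibroblasts for 12, in plasmacytoid dendritic cells for 6, in cholangiocytes for 5, and in Kupffer cells, monocytes, NK cells with ILC1, and T cells for 1 each. Neutrophils and hepatocytes, with as few as 1 and 4 cells in a library, were left out of this ranking. Mesothelial cells numbered 12 to 28 per library and plasmacytoid dendritic cells 18 to 69, so their levels rest on few cells. These levels describe classes made by clustering and were not tested, and CPM is not corrected for transcript length. The map of levels by class shows these blocks.

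**Figure D1:**
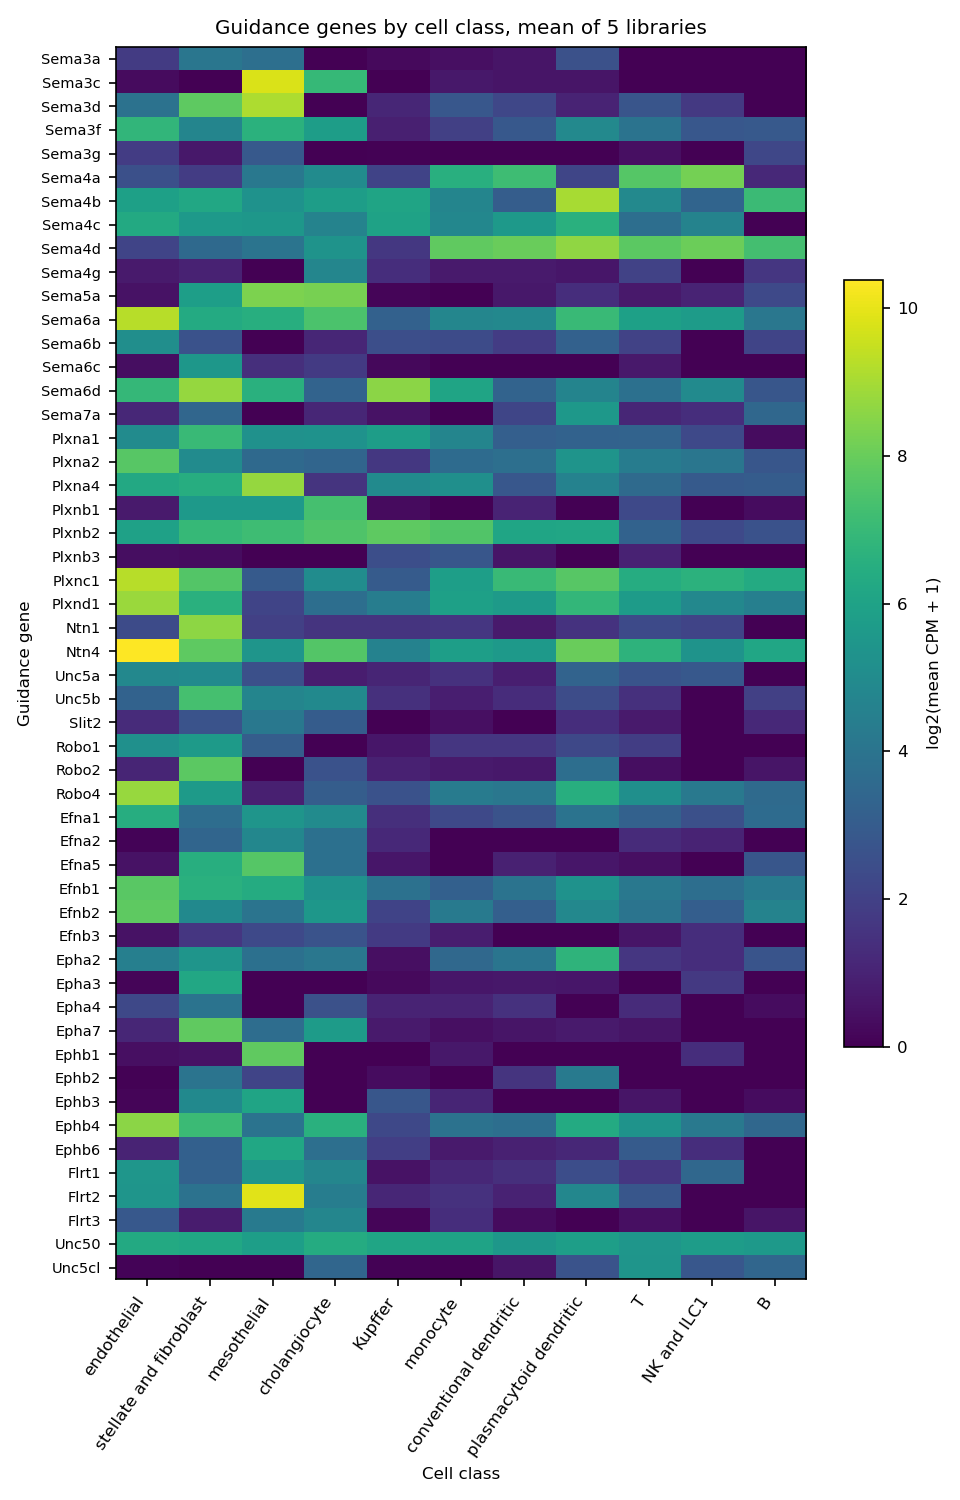
Level of the 52 guidance genes with at least 100 molecules (rows, by family) in each cell class (columns), as log2 of the mean CPM over 5 libraries plus 1. Ntn4 in endothelial cells, Flrt2 and Sema3c in mesothelial cells and Sema6d in stellate and Kupffer cells are among the brightest cells of the map.

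Ligands and receptors of several families were found in endothelial cells. Ntn4, a netrin of basement membranes, averaged 1338 CPM there, against 256 CPM in plasmacytoid dendritic cells, the next class. Plxnc1, the plexin that binds semaphorin 7A, averaged 626 CPM, and the plexins Plxnd1 and Plxna2 averaged 447 and 207 CPM. The transmembrane semaphorin Sema6a averaged 608 CPM and Robo4 445 CPM. Ephb4 averaged 381 CPM, and the ephrins Efnb2 and Efnb1 averaged 224 and 212 CPM. Sema7a itself, the known ligand of Plxnc1, was highest in plasmacytoid dendritic cells, at 45.3 CPM. The level of endothelial markers in plasmacytoid dendritic cells is not given, and the part of endothelial RNA in their Ntn4 value was not tested.

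Endothelial subtypes differed in these genes. The large-vessel cluster, whose leading genes included Gja5 and Bmx, averaged 3068 CPM of Ntn4, 896 CPM of Efnb1, 434 CPM of Efnb2, 347 CPM of Flrt2 and 250.5 CPM of Sema3f, a secreted semaphorin. Sinusoidal cells averaged 1321 CPM of Ntn4, 192 CPM of Efnb1, 230.4 CPM of Efnb2, 23.1 CPM of Flrt2 and 105 CPM of Sema3f. Sema3g averaged 52.1 CPM in the large-vessel cluster and 0.109 CPM in sinusoidal cells. A cluster led by Wnt9b and Rspo3, which mark central veins, averaged 662 CPM of Ephb4 and 14.8 CPM of Efnb2, with 111 CPM of Sema3d and 42.5 CPM of Flrt3. In the large-vessel cluster Sema3d averaged 15.6 CPM and Flrt3 1.11 CPM.

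The promoters of 4 endothelial members are shown because the results below turn on them: the ephrins Efnb1 and Efnb2 and the netrin Ntn4, which shared a position in the sinusoid, and Plxnc1, which was lower after pIVCL. Each runs from 250 bases before the start of the gene to 50 bases after it, from RefSeq on GRCm38.p6, which is not the build of the expression data. Capitals mark TGGGAA, the core bound by RBPJ, the DNA-binding partner of Notch.
Efnb1 (chrX:99135811-99136110, plus strand): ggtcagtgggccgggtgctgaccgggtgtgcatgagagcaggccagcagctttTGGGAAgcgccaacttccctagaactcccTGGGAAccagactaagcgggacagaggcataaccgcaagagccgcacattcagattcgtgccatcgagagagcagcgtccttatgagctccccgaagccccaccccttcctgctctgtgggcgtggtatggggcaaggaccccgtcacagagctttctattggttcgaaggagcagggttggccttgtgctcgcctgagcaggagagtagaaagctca
Efnb2 (chr8:8661193-8661492, minus strand): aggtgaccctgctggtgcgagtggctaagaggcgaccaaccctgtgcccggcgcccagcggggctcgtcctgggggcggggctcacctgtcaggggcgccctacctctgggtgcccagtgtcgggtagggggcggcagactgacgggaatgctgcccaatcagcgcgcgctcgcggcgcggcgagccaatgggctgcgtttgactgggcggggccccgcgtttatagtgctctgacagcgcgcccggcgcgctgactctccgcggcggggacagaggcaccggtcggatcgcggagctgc
Ntn4 (chr10:93640799-93641098, plus strand): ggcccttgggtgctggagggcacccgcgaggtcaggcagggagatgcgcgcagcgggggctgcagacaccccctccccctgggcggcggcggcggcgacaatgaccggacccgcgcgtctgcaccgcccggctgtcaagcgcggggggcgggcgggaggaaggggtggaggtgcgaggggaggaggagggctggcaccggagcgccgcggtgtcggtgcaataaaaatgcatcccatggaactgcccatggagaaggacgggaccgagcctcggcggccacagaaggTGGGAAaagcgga
Plxnc1 (chr10:94944796-94945095, minus strand): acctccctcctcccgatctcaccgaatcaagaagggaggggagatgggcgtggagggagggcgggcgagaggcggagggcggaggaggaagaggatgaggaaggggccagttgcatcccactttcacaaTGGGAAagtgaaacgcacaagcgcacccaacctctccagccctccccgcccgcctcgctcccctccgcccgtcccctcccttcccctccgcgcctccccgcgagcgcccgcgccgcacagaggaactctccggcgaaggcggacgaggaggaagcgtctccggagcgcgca
TGGGAA was searched on both strands, its reverse complement being TTCCCA. It stood at 2 places in the Efnb1 promoter and at 1 in each of those of Ntn4 and Plxnc1, and these letters are not in the Efnb2 window. RefSeq promoters were matched for 60 of the 70 genes, and 16 of their 76 promoters (21.1%) held the core, against 25.6% of all 32851 promoters. GATA's AGATAA, also searched on both strands, was in 3.95% of the guidance promoters and 11.2% of all promoters. The TCF and LEF sequence ATCAAAG was in 0 guidance promoters and in 3.73% of all promoters. The GC content was 59.7% for Efnb1, 72.3% for Efnb2, 72.0% for Ntn4 and 69.0% for Plxnc1, against a median of 52.7% over all promoters. These matches describe letters and do not show binding.

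Stellate cells and fibroblasts held another set. Sema6d, a transmembrane semaphorin that binds plexin-A1, averaged 424 CPM in this class. Ntn1, the founding netrin of axon guidance, averaged 390.2 CPM, against 4.2025 CPM in endothelial cells. Its receptor Unc5b averaged 160.02 CPM, the receptor Epha7 229 CPM and the secreted Sema3d 221 CPM. Robo2, a Slit receptor, averaged 218 CPM in the class, with 487 CPM within the fibroblast cluster and 152 CPM within the stellate cluster. Plxna4 differed more, with 298 CPM in the fibroblast cluster and 16.2 CPM in the stellate cluster.

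Other classes held single prominent members. Kupffer cells averaged 384 CPM of Sema6d and 225 CPM of Plxnb2, a plexin of class 4 semaphorins. Mesothelial cells, the liver's surface layer, averaged 978 CPM of Flrt2, 887 CPM of Sema3c, 559 CPM of Sema3d and 432 CPM of Plxna4. Plasmacytoid dendritic cells averaged 523 CPM of Sema4b and 401 CPM of Sema4d, an immune semaphorin. NK cells with ILC1 averaged 296 CPM of Sema4a and 268 CPM of Sema4d. Cholangiocytes, the bile duct cells, averaged 304 CPM of Sema5a and 158 CPM of Plxnb1, a receptor of Sema4d. The Slit ligands were scarce in all classes: Slit2 reached 16.8 CPM and Slit3 39.3 CPM in mesothelial cells, and Slit1 reached 1.55 CPM in Kupffer cells.

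In endothelial cells, 5 guidance genes fell and 2 rose after pIVCL. Plxnc1, Flrt1, Sema3d, Sema6d and Sema6a were lower, and Efna1 and Flrt3 were higher, by the edgeR test. Of the 70 genes, 35 passed the filter on low values and were tested, and 7 of them passed the threshold, against a background of 5.43% of all 11317 genes tested (2.68% higher and 2.76% lower). Of the tested members, 12 were semaphorins (3 fell), 6 plexins (1 fell), 3 ephrins (1 rose) and 3 Flrt genes (1 rose, 1 fell). The 2 netrins, 2 Unc5 receptors, 2 Robo receptors, 3 Eph receptors, 1 Slit and Unc50 tested did not pass. The median log2 fold change was -0.31 over the 35 genes and 0.0017 over all genes tested. The libraries of the groups did not overlap for 8 members that were higher and 16 that were lower after pIVCL, where 43.9% of all genes tested did not overlap.

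Plxnc1 had 413, 275 and 249 CPM in the pIVCL libraries, against 1138 and 1123 CPM in the sham libraries. All pIVCL libraries lay far below both sham libraries. Plxnc1 was 3.62-fold lower, a log2 change of -1.85 ± 0.21 (SE, n = 3 and 2) with an adjusted p of 0.00549 in edgeR's quasi-likelihood test. With every cell thinned to 2000 molecules, which left out 30, 53, 45, 0 and 0 cells in library order from pIVCL 1 to sham 2, Plxnc1 was seen in 49.2, 36.8 and 36.7% of pIVCL endothelial cells, against 79.8 and 78.9% of sham endothelial cells. Unthinned, these shares were 68.5, 57.3 and 57.5% in pIVCL libraries and 91.7 and 91.9% in sham libraries. In Kupffer cells, which had 3.33, 6.10 and 1.30 CPM after pIVCL and 10.9 and 13.4 CPM after sham surgery, the thinned share was 0 to 0.709% in pIVCL libraries and 1.19 and 1.61% in sham libraries. The fall of Plxnc1 passed under each of 16 alternative settings, 3 of which leave a single library in 1 group, with log2 changes of -2.10 to -1.46 and adjusted p-values of at most 0.0386.

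The Flrt genes moved in different directions. Flrt1 had 12.5, 25.3 and 21.3 CPM in the pIVCL libraries, against 92.1 and 68.0 CPM in the sham libraries. It was 4.08-fold lower, a log2 change of -2.03 ± 0.27 (SE) with an adjusted p of 0.00981 in edgeR, and the groups did not overlap. Without sham 1 the adjusted p was 0.0888. Flrt3 had 8.49, 5.49 and 12.7 CPM in the pIVCL libraries, against 2.14 and 1.71 CPM in the sham libraries, a log2 change of 2.16 ± 0.41 (SE) with an edgeR adjusted p of 0.0253. Flrt3 was a rare transcript, seen in 0.755 to 1.66% of thinned pIVCL endothelial cells and 0.211 to 0.373% of thinned sham endothelial cells. Its adjusted p was 0.171 without sham 1, 0.188 without sham 2 and 0.0579 without pIVCL 3.

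Among the semaphorins, Sema6a had 552, 532 and 416 CPM in the pIVCL libraries, against 803 and 769 CPM in the sham libraries. Sema6d had 111, 97.4 and 82.2 CPM after pIVCL, against 168 and 149 CPM after sham surgery. Sema3d, a secreted cue, had 11.1, 4.64 and 3.88 CPM after pIVCL, against 30.3 and 21.5 CPM after sham surgery. No group overlap was seen for these 3 genes, with log2 changes of -0.65 ± 0.15 for Sema6a, -0.70 ± 0.15 for Sema6d and -1.93 ± 0.39 for Sema3d (SE). Their adjusted p-values in edgeR were 0.0480, 0.0343 and 0.0351. Each of the 3 calls was lost without sham 1 (adjusted p of 0.355, 0.312 and 0.283), sham 2 (0.281, 0.153 and 0.135), pIVCL 2 (0.103, 0.102 and 0.105) or pIVCL 3 (0.103, 0.0939 and 0.0784). With batch as a term in the model, the adjusted p was 0.158 for Sema6a, 0.106 for Sema6d and 0.0325 for Sema3d. Sema6a also missed the threshold with DESeq2 size factors (0.0516) and with a stricter filter on cells (0.0551), and Sema3d in sinusoidal cells alone (0.0512).

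Efna1, an ephrin of the A class and a ligand of Epha2, had 96.9, 127 and 98.3 CPM in the pIVCL libraries, against 58.2 and 58.8 CPM in the sham libraries. All pIVCL libraries were above both sham libraries, which were nearly equal. The rise was 1.84-fold, a log2 change of 0.88 ± 0.15 (SE) with an adjusted p of 0.0193 in edgeR, and it was lost without sham 1 (0.201) and without sham 2 (0.158). The other abundant members did not pass. Robo4 had 489, 482 and 539 CPM after pIVCL, against 347 and 354 CPM after sham surgery (log2 change 0.52 ± 0.13, adjusted p = 0.0527 in edgeR). It passed in 7 of 16 alternatives, among them DESeq2 size factors (0.0498) and the fit without pIVCL 1 (0.0101), in which batch and surgery coincide. Ntn4 had 1462, 1871 and 1118 CPM after pIVCL, against 1083 and 1160.0 CPM after sham surgery (log2 change 0.40 ± 0.21, adjusted p = 0.282 in edgeR). The Ntn4 libraries of the groups overlapped, with pIVCL 3 between the sham libraries. Plxnd1 had 371, 463 and 379 CPM after pIVCL, against 553 and 483 CPM after sham surgery (adjusted p = 0.189 in edgeR), and Ephb4 had 361, 364 and 315 CPM after pIVCL, against 458 and 420.3 CPM after sham surgery (adjusted p = 0.161 in edgeR). The 24 further genes tested had log2 changes of -1.09 to 1.51, with 11 above 0 and 13 below.

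**Figure D2:**
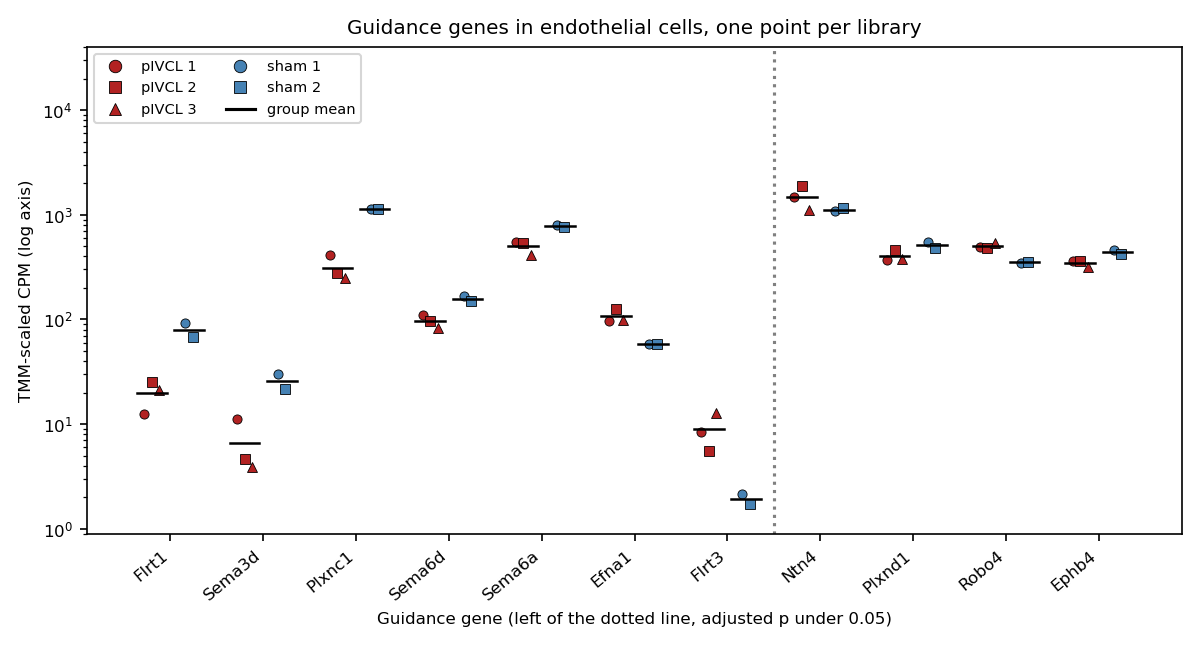
TMM-scaled CPM (log axis) of 11 guidance genes in endothelial cells, with 1 point per library, pIVCL left of sham for each gene, and a bar at each group mean. To the left of the dotted line are the 7 genes that passed, from Flrt1 at 12.5 to 25.3 CPM after pIVCL and 68.0 and 92.1 CPM after sham surgery to Flrt3, and to its right the abundant genes that did not pass.

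The number of calls changed when single libraries were left out. Without sham 1, 0 members rose and 1 fell, and without sham 2, 0 rose and 2 fell. Without pIVCL 1, 7 rose and 11 fell, without pIVCL 2, 2 rose and 2 fell, and without pIVCL 3, 1 rose and 3 fell. In batch 2021.3 alone, which sets pIVCL 1 against both sham libraries, 3 rose and 11 fell. In that fit, as in those without sham 1 or sham 2, 1 group is a single library and is assumed to vary like the other group. The share of all genes that passed is not given for these fits or for the leave-outs below. Their counts therefore do not show whether guidance genes changed more often than other genes. Hepatocyte markers, all 8 of which were detected, made up 0.0440 to 0.0515% of endothelial molecules in pIVCL libraries and 0.0143 to 0.0256% in sham libraries. The 5 erythroid markers made up 0.00691 to 0.128% in pIVCL libraries and 0.00619 to 0.0130% in sham libraries. The part of these cells in the results was not tested.

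Sinusoidal clusters 6, 9, 10 and 11 divided by surgery, while cluster 2 did not. Cluster 2 had Efnb1, Efnb2 and Ntn4 among its leading genes. It held 296, 372 and 97 of 1386, 1500 and 601 sinusoidal pIVCL cells. Of 2404 and 2145 sinusoidal sham cells it held 492 and 487. Of the sinusoidal cells, cluster 9 held 37, 8 and 1 pIVCL cells and 1077 and 952 sham cells, and cluster 10 held 228, 62 and 11 pIVCL cells and 745 and 622 sham cells. Cluster 6 held 630, 798 and 328 pIVCL cells and 75 and 74 sham cells, and cluster 11 held 195, 260 and 164 pIVCL cells and 15 and 10 sham cells. Plxnc1 and Flrt1 were among the leading genes of cluster 10, and Plxnc1 among those of cluster 9. In sinusoidal cells alone, 32 members were tested, 3 rose (Efna1, Flrt3 and Robo4) and 5 fell (Plxnc1, Flrt1, Sema6d, Sema6a and Sema3f), where 3.69% of all genes tested rose and 3.30% fell. Robo4 had 506, 508 and 588 CPM in sinusoidal pIVCL cells, against 359.8 and 369.9 CPM in sinusoidal sham cells (adjusted p = 0.0419 in edgeR). Sema3f had 89.2, 91.2 and 92.1 CPM in sinusoidal pIVCL cells, against 134 and 119 CPM in sinusoidal sham cells (adjusted p = 0.0445 in edgeR). In the large-vessel cluster, which was not tested alone, Plxnc1 had 134, 193 and 193 CPM after pIVCL and 152 and 113 CPM after sham surgery, so its libraries overlapped there.

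The sinusoid runs from the portal end to the central vein. In each library the sinusoidal cells were ranked by pericentral minus periportal markers, none of them a guidance gene, the ranking was divided into 3 equal parts, and the pericentral end was compared with the periportal end (462, 500 and 200 cells per end in the pIVCL libraries, 801 and 715 in the sham libraries). The median pericentral cell held 7, 9 and 13 pericentral marker molecules after pIVCL and 11 and 7 after sham surgery. Of periportal markers it held 6, 6.5 and 7 after pIVCL and 7 and 8 after sham surgery. The median periportal cell held 1 to 2 pericentral and 24 to 29 periportal marker molecules. The pericentral part thus held both kinds of marker, and in sham 2 its periportal median was the higher. Of 29 members tested, 7 were higher and 7 lower in the pericentral part, where 11.0% of all genes tested passed (6.07% higher and 4.92% lower). Ephrins and Ntn4 were periportal and Sema4c, Sema4a, Sema3d, Flrt3, Robo4, Ephb4 and Sema6d pericentral. Guidance genes made up 0.402, 0.434 and 0.404% of pericentral molecules in pIVCL libraries and 0.525 and 0.502% in sham libraries. They made up 0.633, 0.760 and 0.608% of periportal molecules in pIVCL libraries and 0.665 and 0.646% in sham libraries.

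Efnb2, the arterial ephrin, had 106, 101 and 94.3 CPM in pericentral pIVCL cells and 53.8 and 85.4 CPM in pericentral sham cells. In periportal cells it had 425, 541 and 353 CPM in the pIVCL libraries and 278 and 363 CPM in the sham libraries. It was lower in the pericentral part in 5 of 5 libraries, by 4.51-fold (log2 change -2.17 ± 0.08, SE, edgeR adjusted p = 4.09e-14). Ntn4 had 631, 894 and 629.9 CPM in pericentral pIVCL cells and 361 and 449 CPM in pericentral sham cells. In periportal cells Ntn4 had 2384, 3209 and 1938 CPM in the pIVCL libraries and 1708 and 1690.4 CPM in the sham libraries, a log2 change of -1.91 ± 0.08 (SE, edgeR adjusted p = 1.58e-13). Efnb1 had 36.9, 68.0 and 40.7 CPM in pericentral pIVCL cells and 75.5 and 88.2 CPM in pericentral sham cells. In periportal cells Efnb1 had 335, 554 and 372 CPM in the pIVCL libraries and 267 and 282 CPM in the sham libraries (log2 change -2.45 ± 0.33, SE, edgeR adjusted p = 0.0173). The adjusted p of Efnb1 in edgeR was 0.0624 without pIVCL 1, 0.0712 without pIVCL 2 and 0.0567 without pIVCL 3, and Efnb1 was lower in the pericentral part in 5 of 5 libraries.

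The other 4 members that were lower in the pericentral part were Efna1 (log2 change -0.93), Sema4b (-0.46), Plxnd1 (-0.42) and Sema6a (-0.22), each in 5 of 5 libraries. Efna1 had 62.1, 86.5 and 63.8 CPM in pericentral pIVCL cells and 42.4 and 42.5 CPM in pericentral sham cells, against 137, 182 and 145 CPM in periportal pIVCL cells and 66.8 and 68.3 CPM in periportal sham cells. Sema4b had 42.3, 36.4 and 19.4 CPM in pericentral pIVCL cells and 81.8 and 74.5 CPM in pericentral sham cells, against 71.6, 62.6 and 52.2 CPM in periportal pIVCL cells and 92.8 and 81.1 CPM in periportal sham cells. Plxnd1 had 325, 427 and 385 CPM in pericentral pIVCL cells and 442 and 376 CPM in pericentral sham cells, against 428, 523 and 433 CPM in periportal pIVCL cells and 661 and 575 CPM in periportal sham cells. These were modest differences beside those of Efnb1, Efnb2 and Ntn4. Sema6a had 498, 507 and 431 CPM in pericentral pIVCL cells and 829 and 739.7 CPM in pericentral sham cells, against 639, 598 and 499 CPM in periportal pIVCL cells and 854 and 873 CPM in periportal sham cells. Its adjusted p in edgeR was 0.0337, and 0.115 without sham 2, 0.184 without pIVCL 1, 0.115 without pIVCL 2 and 0.0672 without pIVCL 3. The Sema4b call was lost without pIVCL 1 (0.171), without pIVCL 2 (0.135) and in sham libraries alone (0.372).

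Among the pericentral genes, Sema4c, a class 4 semaphorin, had 72.4, 98.9 and 72.1 CPM in pericentral pIVCL cells and 96.9 and 125 CPM in pericentral sham cells. In periportal cells it had 36.5, 50.6 and 53.4 CPM in the pIVCL libraries and 79.3 and 63.0 CPM in the sham libraries, a log2 change of 0.73 ± 0.11 (SE, edgeR adjusted p = 0.000126). Robo4 had 607, 570.5 and 596 CPM in pericentral pIVCL cells and 379 and 395 CPM in pericentral sham cells, against 413, 402 and 429 CPM in periportal pIVCL cells and 330.4 and 349 CPM in periportal sham cells. Ephb4, the venous Eph receptor, had 364, 377 and 338 CPM in pericentral pIVCL cells and 520.2 and 465 CPM in pericentral sham cells, against 335, 339.6 and 302 CPM in periportal pIVCL cells and 405 and 360.4 CPM in periportal sham cells. It was 1.18-fold higher in the pericentral part, in 5 of 5 libraries (adjusted p = 0.0193 in edgeR), a call lost without sham 1 (0.1) and without sham 2 (0.123). Sema6d had 112, 113 and 99 CPM in pericentral pIVCL cells and 192 and 157 CPM in pericentral sham cells, against 87.1, 93.4 and 85.8 CPM in periportal pIVCL cells and 152 and 139.8 CPM in periportal sham cells, and was 1.21-fold higher in 5 of 5 libraries (adjusted p = 0.0154 in edgeR), a call lost without sham 1 (0.0931) and without pIVCL 1 (0.0676). Neither passed in pIVCL libraries alone (0.284 for Ephb4 and 0.0824 for Sema6d), and Robo4 did not pass with parts set by the sign of the marker difference (0.0811). Sema4a had 11.7, 8.56 and 5.55 CPM in pericentral pIVCL cells and 5.66 and 4.38 CPM in pericentral sham cells, against 5.51, 1.04 and 3.48 CPM in periportal pIVCL cells and 1.22 and 1.17 CPM in periportal sham cells. Flrt3 had 10.3, 8.56 and 17.6 CPM in pericentral pIVCL cells and 2.83 and 1.92 CPM in pericentral sham cells, and at most 2.32 CPM in any periportal part, with 0 in pIVCL 1 and sham 1. Among matched promoters, TGGGAA was in 2 of 8 (25%) of those of genes lower in the pericentral part, Efnb1 and Ntn4 of the promoters printed above among them, and in 2 of 12 (16.7%) of those of genes higher there, beside 25.6% of all promoters.

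**Figure D3:**
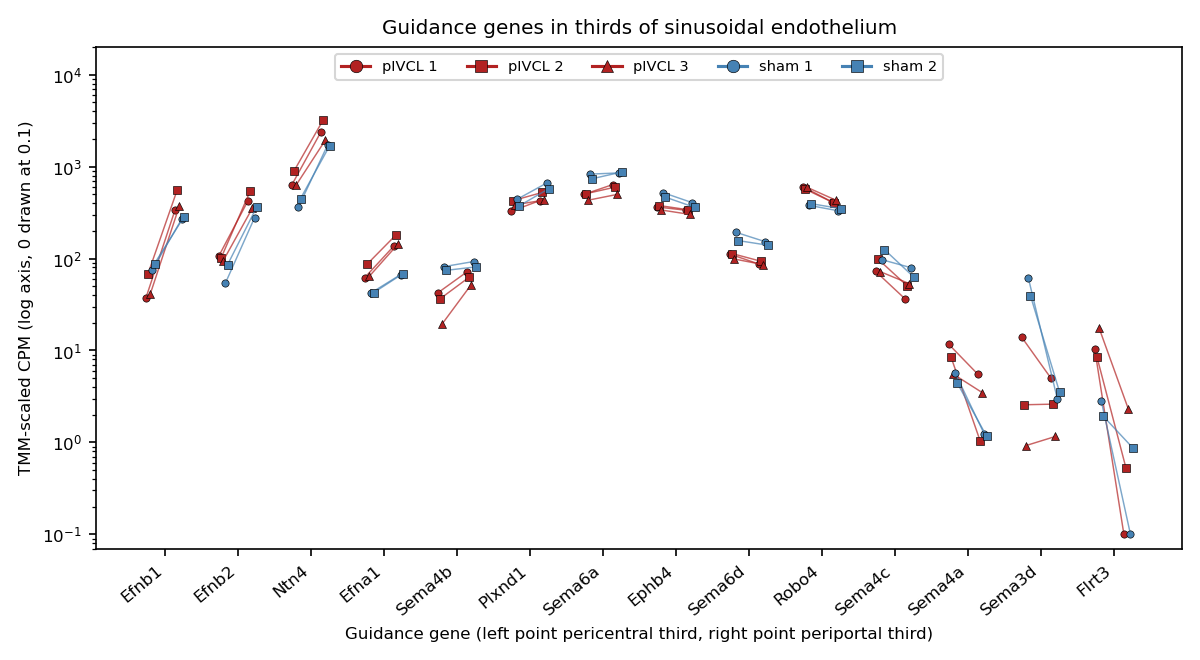
TMM-scaled CPM (log axis, 0 drawn at 0.1) of the 14 guidance genes that passed between the parts of the sinusoid, with a line for each library from its pericentral point on the left to its periportal point on the right, pIVCL in red and sham in blue. Efnb1, Efnb2 and Ntn4 lie higher in the periportal part in all 5 libraries, while Sema3d is higher in the pericentral part in 3 of 5.

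For 7 of the 29 genes the pIVCL effect differed between the parts, where 4.50% of all genes tested did (2.15% with a higher and 2.36% with a lower pericentral effect). The difference is the log2 pIVCL effect in the pericentral part minus that in the periportal part, from an interaction in edgeR. Markers used for the ranking themselves went with surgery. Wnt2, Kit and Thbd, pericentral markers, were among the leading genes of cluster 9 (37, 8 and 1 pIVCL and 1077 and 952 sham cells). Fabp4, also pericentral, was among those of cluster 11 (195, 260 and 164 pIVCL and 15 and 10 sham cells). A pIVCL effect that depends on position cannot be told apart from a change in which cells each part holds. Plxnc1 had 401, 253 and 231 CPM in pericentral pIVCL cells, against 1398 and 1345 CPM in pericentral sham cells. In periportal cells Plxnc1 had 439.5, 346 and 408 CPM in the pIVCL libraries, against 987 and 1021 CPM in the sham libraries. Plxnc1 was thus lower after pIVCL at both ends, more so at the pericentral end (difference -0.86 ± 0.11, SE, edgeR adjusted p = 1.81e-06), where its ratio of pIVCL to sham means was 0.215, against 0.397 at the periportal end. Within pIVCL libraries Plxnc1 was lower in the pericentral part (log2 change -0.43) and within sham libraries higher (0.45).

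Efnb1 had a ratio of pIVCL to sham means of 0.593 in the pericentral part and 1.53 in the periportal part (difference -1.36 ± 0.13, SE, edgeR adjusted p = 1.95e-10). Sema3d had 13.9, 2.57 and 0.925 CPM in pericentral pIVCL cells, against 62.0 and 39.4 CPM in pericentral sham cells, and 1.16 to 5.01 CPM in periportal cells of either surgery. Its difference was -2.96 ± 0.61 (SE, edgeR adjusted p = 0.000980), and 0.0879 without sham 1. As a difference between the parts, Sema3d had a log2 change of 3.20 ± 0.53 (adjusted p = 0.0123 in edgeR), higher in the pericentral part in 3 of 5 libraries, and 0.102 without sham 2. Sema4b had a difference of -0.71 ± 0.18. Flrt2, Plxna2 and Robo4 went the other way, with differences of 1.82 ± 0.42, 0.40 ± 0.11 and 0.33 ± 0.10. For these 3 and Sema4b the adjusted p in edgeR was 0.0114 to 0.0381. Flrt2 had 8.99, 18.8 and 38.8 CPM in pericentral pIVCL cells and 24.3 and 12.6 CPM in pericentral sham cells, against 13.5, 8.35 and 17.4 CPM in periportal pIVCL cells and 40.6 and 46.4 CPM in periportal sham cells. Plxna2 had 194, 245 and 210.0 CPM in pericentral pIVCL cells and 265 and 219 CPM in pericentral sham cells, against 151, 182 and 157 CPM in periportal pIVCL cells and 254 and 228 CPM in periportal sham cells. The Sema4b difference was lost without sham 1 (0.182) or sham 2 (0.186), and that of Flrt2 without sham 2 (0.161), pIVCL 2 (0.0831) or pIVCL 3 (0.148). The Plxna2 difference was lost without sham 1 (0.237), sham 2 (0.455) or pIVCL 2 (0.115), and that of Robo4 without sham 1 (0.477), sham 2 (0.461) or pIVCL 2 (0.0909). None of these 4 differences passed with parts set by the sign of the marker difference (adjusted p of 0.126 to 0.723), and Robo4 did not pass without a filter on low counts (0.0526). The number of genes with a higher difference was 1 without sham 1, 0 without sham 2, 5 without pIVCL 1 and 0 without pIVCL 2, and that with a lower difference was 2 without sham 1.

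In stellate cells and fibroblasts, 1 guidance gene rose and 1 fell after pIVCL. Of 37 members tested these 2 passed, where 1.29% of all genes tested did (0.845% higher and 0.446% lower). The groups did not overlap for 7 members that were higher and 8 that were lower, where 34.5% of all genes did not overlap. Epha2, an Eph receptor of the A class, had 60.7, 67.7 and 59.5 CPM in the pIVCL libraries, against 9.80 and 22.6 CPM in the sham libraries. It was 3.94-fold higher (log2 change 1.98 ± 0.37, SE, edgeR adjusted p = 0.0291), and all pIVCL libraries lay above both sham libraries. Plxna4 had 34.3, 21.0 and 47.1 CPM in the pIVCL libraries, against 114 and 226 CPM in the sham libraries (log2 change -2.37 ± 0.38, SE, edgeR adjusted p = 0.0259).

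The fall of Plxna4 was not seen in the stellate cluster alone. Fibroblasts were 20, 9 and 13 of 296, 330 and 123 cells of the class in the pIVCL libraries, against 17 and 38 of 94 and 70 cells in the sham libraries. The 8 fibroblast markers, of which 6 to 8 were detected in a library with Pi16 or Clec3b at 0 in some, made up 0.0506 to 0.197% of class molecules in pIVCL libraries and 0.277 and 0.462% in sham libraries. In the stellate cluster Plxna4 changed by 0.12 on the log2 scale (adjusted p = 0.965 in edgeR). Within the fibroblast cluster it had 275, 200 and 254 CPM after pIVCL, against 386 and 374 CPM after sham surgery, from too few cells to test. In the class as a whole the call of Plxna4 was lost with batch as a term (adjusted p = 0.107 in edgeR) and without sham 2 (0.206), and that of Epha2 without sham 1 (0.128), sham 2 (0.101), pIVCL 2 (0.0896) or pIVCL 3 (0.0640).

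Within the stellate cluster, 35 members were tested, 1 rose and 1 fell, where 1.21% of all genes tested passed (0.917% higher and 0.297% lower). Epha2 had 64.0, 67.8 and 64.2 CPM after pIVCL, against 11.0 and 16.3 CPM after sham surgery (log2 change 2.33 ± 0.41, SE, edgeR adjusted p = 0.0221). Plxnc1 had 193, 157 and 186 CPM after pIVCL, against 408 and 375 CPM after sham surgery, a 2.20-fold fall (log2 change -1.14 ± 0.20, SE, edgeR adjusted p = 0.0218). The endothelial marker list made up 0.0646 to 0.312% of the class in pIVCL libraries and 0.285 and 0.318% in sham libraries, with all 8 genes detected, and the hepatocyte list 0.142 to 0.173% in pIVCL libraries and 0.0182 and 0.0346% in sham libraries. The part of either in these results was not tested. Epha2 was not seen in any thinned Kupffer cell, and in 9.72, 12.4 and 10.4% of thinned pIVCL cells and 3.19 and 2.86% of thinned sham cells of the stellate and fibroblast class.

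The most abundant members of this class did not pass. Sema6d had 602, 572 and 439 CPM in the pIVCL libraries, against 380.4 and 192 CPM in the sham libraries (log2 change 0.91, adjusted p = 0.191 in edgeR). Epha7 had 309.6, 259 and 285 CPM after pIVCL, against 218 and 104 CPM after sham surgery (adjusted p = 0.219 in edgeR, and 0.0466 without sham 1). Without the filter on low counts Epha7 (0.0164) and Sema6d (0.00409) passed. Ntn1 had 596, 270.2 and 327 CPM after pIVCL, against 425 and 367 CPM after sham surgery. Ntn1 thus differed more between libraries of 1 group than between groups. Sema3d had 271, 216 and 281 CPM after pIVCL, against 225 and 136 CPM after sham surgery, Robo2 184, 191 and 228 CPM, against 233 and 269 CPM, and Ntn4 120.1, 420.1 and 179 CPM, against 122 and 312 CPM.

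**Figure D4:**
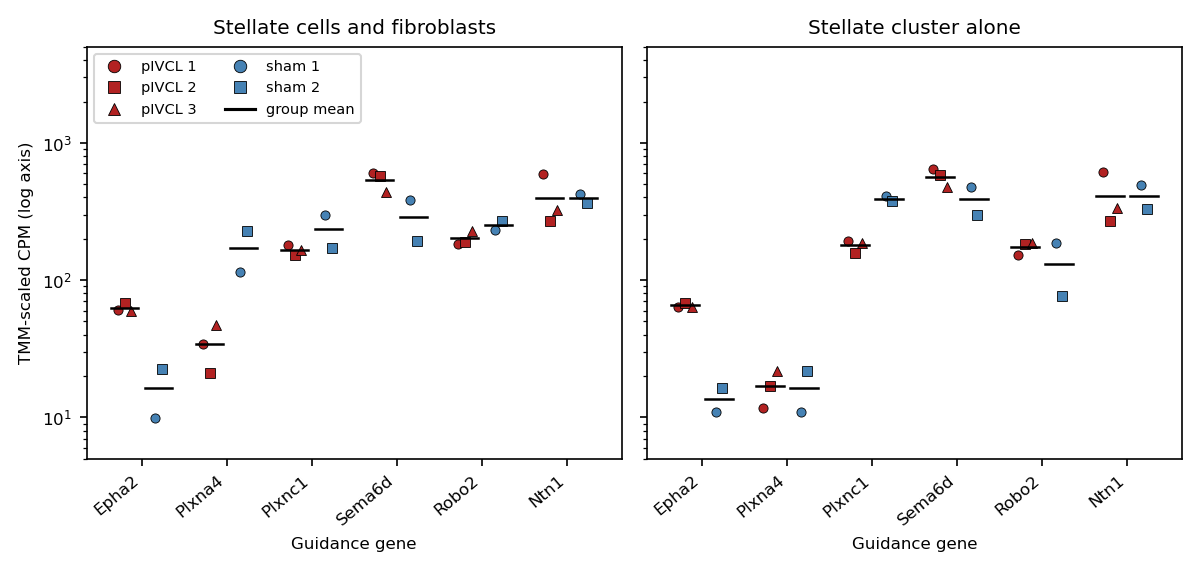
TMM-scaled CPM (log axis) of 6 guidance genes in stellate cells and fibroblasts together (left) and in the stellate cluster alone (right), with 1 point per library, pIVCL left of sham, and a bar at each group mean. Epha2 is higher after pIVCL in both panels, while the 114 and 226 CPM of Plxna4 in the sham libraries of the combined class are not seen in the stellate cluster.

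The pIVCL effects of endothelial cells and of stellate cells with fibroblasts were compared in 1 model over 48 members. The effect differed for 5, being more positive in endothelial cells for 1 and more negative for 4, where 1.66% of all genes tested differed (0.808% more positive and 0.851% more negative). Sema6d fell in endothelial cells and had a log2 change of 0.91 in stellate cells and fibroblasts, a difference of -1.69 ± 0.23 (SE, edgeR adjusted p = 0.000994). Sema3d had log2 changes of -1.93 in endothelial cells and 0.49 in stellate cells and fibroblasts (difference -2.49 ± 0.35, SE, edgeR adjusted p = 0.00486). The Sema3d difference was lost without sham 1 (0.0890) and without sham 2 (0.258). With the stellate cluster alone in place of the class, the differences were -1.31 for Sema6d and -2.21 for Sema3d, with adjusted p-values of 0.00241 and 0.00413 in edgeR. Plxnc1 differed by -1.42 ± 0.25 (adjusted p = 0.0102 in edgeR) but by -0.79 against the stellate cluster (0.133), and its call was lost without sham 2 (0.198). Ntn1 differed by -1.05 ± 0.25 (adjusted p = 0.0460 in edgeR), a call lost in 8 of 9 alternatives, with an adjusted p of 0.0747 against the stellate cluster, 0.0518 with DESeq2 size factors, 0.202 without sham 1, 0.158 without sham 2, 0.0668 without pIVCL 1, 0.236 without pIVCL 2 and 0.115 without pIVCL 3. Plxna4 differed by 3.05 ± 0.27 (adjusted p = 1.62e-05 in edgeR) but by 0.59 against the stellate cluster (0.804). The number of more negative genes was 2 without sham 1 and 1 without sham 2.

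**Figure D5:**
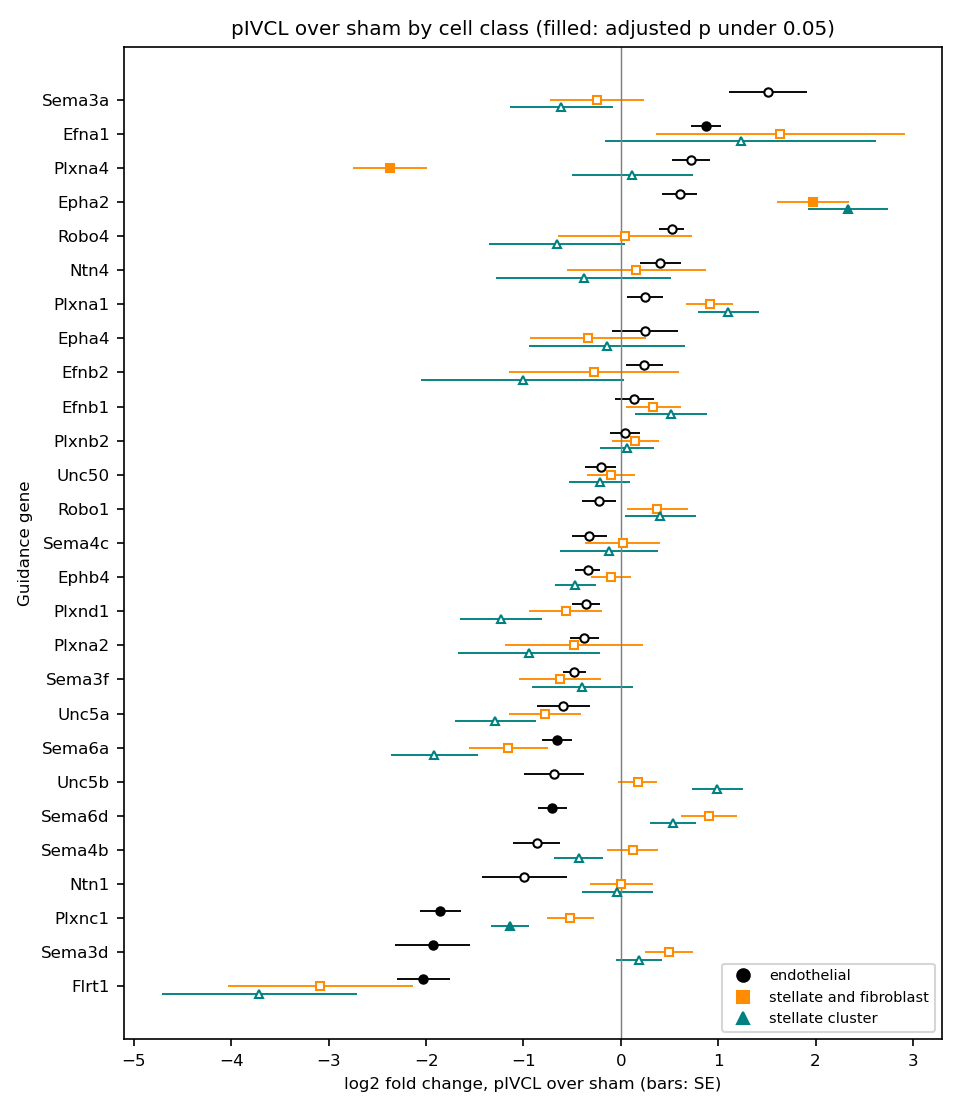
Log2 fold change of pIVCL over sham with its SE for the guidance genes tested in endothelial cells, in stellate cells with fibroblasts and in the stellate cluster, ordered by the endothelial value, with filled symbols for adjusted p under 0.05. Plxnc1 lies below 0 in all 3 (-1.85 in endothelial cells and -1.14 in the stellate cluster), whereas Sema6d and Sema3d lie on opposite sides of 0 in endothelial and stellate cells.

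In Kupffer cells 16 members were tested and 0 passed in edgeR, where 0.312% of all genes tested did. At an unadjusted p under 0.05 there were 6, beside 1456 of all 9627 genes tested, and DESeq2 also called 0. Sema6d had 469, 376 and 326 CPM in the pIVCL libraries, against 349 and 409.7 CPM in the sham libraries. Plxnb2 had 257, 199 and 202 CPM after pIVCL, against 231 and 240.2 CPM after sham surgery. Sema4b had 81.8, 69.6 and 57.8 CPM after pIVCL, against 65.2 and 54.2 CPM after sham surgery, and Sema4c had 50.6, 70.7 and 52.6 CPM after pIVCL, against 79.6 and 61.7 CPM after sham surgery. These 4 semaphorin and plexin genes overlapped between groups. Plxna1, the receptor for Sema6d, had 51.2, 77.8 and 53.9 CPM after pIVCL, against 48.4 and 38.4 CPM after sham surgery, without overlap (adjusted p = 0.295 in edgeR). Unc50 had 75.2, 67.1 and 60.4 CPM after pIVCL and 72.4 and 68.2 CPM after sham surgery. Kupffer cluster 4 held 77, 249 and 342 pIVCL cells, against 97 and 49 sham cells, and cluster 1 held 139, 39 and 22 pIVCL cells, against 661 and 449 sham cells. Cluster 4 was thus the larger of the pair in pIVCL 2 and pIVCL 3, and cluster 1 in pIVCL 1 and both sham libraries.

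Monocytes had 1 call, in Sema6d, among 13 members tested, where 0.394% of all genes tested passed and 0.230% rose. Sema6d had 119, 89.5 and 85.0 CPM in the pIVCL libraries, against 27.1 and 21.7 CPM in the sham libraries, a 3.88-fold rise (log2 change 1.96 ± 0.41, SE, edgeR adjusted p = 0.0210). The adjusted p was 0.119 in the DESeq2 Wald test, 0.287 without sham 1 and 0.138 without sham 2. The 8 Kupffer markers, all detected, made up 0.295 to 0.401% of monocyte molecules in pIVCL libraries and 0.161 and 0.252% in sham libraries, and their part in the Sema6d value was not tested. Of the other abundant members, Sema4d had 227, 169.6 and 255 CPM after pIVCL and 313 and 247 CPM after sham surgery, and Plxnb2 had 225, 186 and 173 CPM after pIVCL and 162 and 252 CPM after sham surgery. Both overlapped between groups, as did Sema4a, at 88.7, 106 and 142 CPM after pIVCL and 93.2 and 60.7 CPM after sham surgery, and Unc50, at 66.5, 55.9 and 78.3 CPM after pIVCL and 36.1 and 99.8 CPM after sham surgery. Plxnd1 had 47.1, 63.4 and 20.004 CPM after pIVCL, against 99.3 and 78.1 CPM after sham surgery (adjusted p = 0.363 in edgeR).

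No member passed in T cells, conventional dendritic cells or NK cells with ILC1. B cells (55, 86 and 492 pIVCL cells and 19 and 16 sham cells) and plasmacytoid dendritic cells (18, 58 and 26 pIVCL cells and 69 and 66 sham cells) had under 20 cells in a library and were not tested. In T cells 13 members were tested and 0 passed in edgeR and in DESeq2, with 2 at an unadjusted p under 0.05 beside 390 of all 7398 genes tested, of which 0% passed. Sema4d had 210.3, 158 and 327 CPM in pIVCL T cells and 206 and 215 CPM in sham T cells, and Sema4a 196, 183 and 257 CPM in pIVCL T cells and 209 and 191 CPM in sham T cells. Both are semaphorins known from immune cells, and both overlapped between groups. Plxnc1 had 63.6, 81.8 and 50.9 CPM in pIVCL T cells, against 164 and 81.9 CPM in sham T cells (adjusted p = 0.935 in edgeR). Ntn4 had 14.7, 338 and 19.4 CPM in pIVCL T cells and 90.7 and 65.8 CPM in sham T cells. Sema6a, like Ntn4 abundant in endothelium, had 9.78, 171 and 2.42 CPM in pIVCL T cells and 101 and 19.3 CPM in sham T cells, and Plxnd1 had 24.5, 114 and 24.2 CPM in pIVCL T cells and 83.7 and 14.4 CPM in sham T cells. These 3 genes were highest in pIVCL 2. The endothelial marker list, all 8 genes detected, made up 0.0230, 0.488 and 0.0374% of T cell molecules in pIVCL libraries and 0.259 and 0.0702% in sham libraries.

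In conventional dendritic cells 9 members were tested and 0 passed in edgeR and in DESeq2, with 1 at an unadjusted p under 0.05 beside 581 of all 6330 genes tested, of which 0.0790% passed. Sema4d had 273, 240.3 and 293 CPM after pIVCL and 338 and 224 CPM after sham surgery. Sema4a had 142, 99.2 and 175 CPM after pIVCL and 145 and 185 CPM after sham surgery, and Plxnc1 had 145, 89.0 and 108 CPM after pIVCL and 208 and 143 CPM after sham surgery. Plxnb2 had 81.8, 61.0 and 91.3 CPM after pIVCL and 55.1 and 67.6 CPM after sham surgery, Plxnd1 48.5, 72.5 and 28.8 CPM after pIVCL and 62.7 and 49.4 CPM after sham surgery, and Ntn4 33.3, 132 and 4.81 CPM after pIVCL and 55.1 and 26.0 CPM after sham surgery. The groups overlapped for all 9 members, while 25.7% of all genes tested did not overlap. In NK cells with ILC1, only Sema4a and Sema4d were abundant enough to test, and 0 passed in edgeR and in DESeq2, with 0 at an unadjusted p under 0.05 beside 178 of all 2961 genes tested, of which 0% passed. Sema4a had 425, 334 and 320.5 CPM in pIVCL NK cells and 263 and 448 CPM in sham NK cells, and Sema4d 368, 259.9 and 496 CPM in pIVCL NK cells and 214 and 277 CPM in sham NK cells.

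A list of 47 co-receptors, binding partners and intracellular effectors of guidance receptors was read beside the members. It was chosen with earlier results of these data known, so its counts beside those of all genes are description only. In endothelial cells 37 of the 47 genes were tested, 1 rose and 3 fell, beside 2.68% and 2.76% of all genes tested. Tiam1, an activator of the small GTPase Rac, had 18.0, 10.6 and 7.48 CPM in pIVCL libraries, against 167 and 178 CPM in sham libraries (log2 change -3.80 ± 0.28, SE, edgeR adjusted p = 0.00118). Gpc1, a glypican that binds Slit, had 12.8, 9.57 and 12.2 CPM after pIVCL, against 30.5 and 36.0 CPM after sham surgery (adjusted p = 0.00549 in edgeR). Adam10, a protease that can shed ephrins, had 153, 155 and 144 CPM after pIVCL, against 216 and 218 CPM after sham surgery (adjusted p = 0.0366 in edgeR). Mical2, an actin-oxidizing enzyme of a family that acts below plexins, had 86.2, 106 and 108 CPM after pIVCL, against 61.5 and 54.9 CPM after sham surgery (adjusted p = 0.0244 in edgeR). In sinusoidal cells alone 2 of 37 rose and 5 fell, beside 3.69% and 3.30% of all genes tested, among them the semaphorin co-receptor Nrp1, which had 1030 CPM in pIVCL 1, 827 in pIVCL 2 and 829 in pIVCL 3, against 1394 and 1366 CPM in sham libraries (adjusted p = 0.0360 in edgeR).

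In stellate cells and fibroblasts 32 of these pathway genes were tested and 1 fell, Tiam1, with 19.8, 7.59 and 19.4 CPM after pIVCL, against 88.2 and 129 CPM after sham surgery (adjusted p = 0.00889 in edgeR), where 0.446% of all genes tested fell. In the stellate cluster alone Tiam1 did not pass the filter on low counts, and 0 of 31 pathway genes passed the test. The fibroblast markers, at 0.0506 to 0.197% of class molecules in pIVCL libraries and 0.277 and 0.462% in sham libraries, moved with Tiam1, and their part in its value was not tested. In Kupffer cells 31, in T cells 25, in conventional dendritic cells 25, in monocytes 24 and in NK cells with ILC1 8 were tested, and 0 passed in each. Between the parts of the sinusoid 35 were tested, 2 were higher and 5 lower in the pericentral part, beside 6.07% and 4.92% of all genes tested. Tiam1 (log2 change 0.96) and Srgap1 (0.33), a Robo effector, were higher in the pericentral part. Plxdc1 (-1.07), the netrin receptor Neo1 (-0.88), the latrophilin Adgrl2 (-0.27), Dag1 (-0.24) and Nrp1 (-0.22) were lower there.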

How the data were processed

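Single-cell RNA of liver cells was measured in 3 pIVCL and 2 sham libraries. Each deposited table holds raw counts, molecules by cell and gene, with identifiers corrected by the RSEC method, per the file headers. The BD Rhapsody WTA pipeline, version 1.9.1, and GRCm39 are named in the submitters' processing notes, and the annotation is not given in the sources used here. A gene absent from a library was counted as 0.

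Cells with under 500 molecules, under 200 genes or over 25% mitochondrial molecules were left out, as were the 3% of cells per library with the highest doublet score from simulated doublets. Cells were scaled to 10000 molecules, and Leiden clustering at resolution 1 used 2000 variable genes, 30 components and 20 neighbours in scanpy 1.11.5. The guidance genes were left out of the variable genes, 17 of which would have been among them. Clusters took a class from at least 3 and at least 50% of its markers, and clusters with markers of a second class were left out. A class was tested where every library held at least 20 of its cells. No correction for free RNA was made, and intervals for counting error are not given because tests used the spread between libraries.

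Molecules were summed per class and library and compared with edgeR 4.0.16 (TMM, filterByExpr, robust quasi-likelihood) in R 4.3.3, over all genes, with pIVCL over sham, or with library as a block for comparisons within libraries. SE is the log2 fold change divided by the root of the F statistic. The test was tested on simulated data. Alternatives used DESeq2 1.42.0, other filters, batch, the replicate number and each library left out. Members with a call and the 6 members of highest mean CPM were named in each test, with up to 6 pathway genes of lowest p that passed. The members, the pathway list and the markers were chosen with earlier results of these data known. Promoters came from RefSeq on GRCm38.p6.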

Additional observations from a re-analysis of the deposited data

Results flagged for a closer look

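The pIVCL effect differed between the pericentral and the periportal part of the sinusoid for 7 guidance genes, by the interaction test in edgeR over all genes. The parts were ranked by markers that went with surgery, so a change in which cells they hold cannot be told apart from this. The log2 effect in the pericentral part minus that in the periportal part was -2.96 for Sema3d (adjusted p = 0.000980), -1.36 for Efnb1 (1.95e-10), -0.86 for Plxnc1 (1.81e-06), -0.71 for Sema4b (0.0114), 0.33 for Robo4 (0.0381), 0.40 for Plxna2 (0.0237) and 1.82 for Flrt2 (0.0131). The ratio of pIVCL to sham means of Sema3d was 0.115 in the pericentral part and 0.909 in the periportal part, and that of Flrt2 was 1.21 in the pericentral part and 0.301 in the periportal part.

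The pIVCL effect differed between endothelial cells and stellate cells with fibroblasts for 5 guidance genes, by the same kind of test. The log2 effect in endothelial cells minus that in stellate cells with fibroblasts was -2.49 for Sema3d (adjusted p = 0.00486), -1.69 for Sema6d (0.000994), -1.42 for Plxnc1 (0.0102), -1.05 for Ntn1 (0.0460) and 3.05 for Plxna4 (1.62e-05). The fibroblast share of the class differed between the groups, and the Plxna4, Plxnc1 and Ntn1 differences did not pass against the stellate cluster alone (adjusted p of 0.804, 0.133 and 0.0747 in edgeR).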

How the results depend on the processing

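Alternatives for other classes and for both interactions were chosen after seeing the data. Counts of calls in this section lack the share of all genes that passed in the same fit. They do not show whether guidance genes changed more often than other genes. The 36 values of named members that passed gave 306 of 392 alternative values in the same direction and past the threshold, 85 in the same direction but not past it, and 1 reversed. The 17 values of named members that did not pass gave 12 past the threshold and 20 reversed among 212 alternative values, 7 of the 12 for Robo4 in endothelial cells. Batch 2021.3 alone and fits without a sham library leave a single library in 1 group, which is assumed to vary like the other group. In fits of pIVCL against sham without pIVCL 1, batch and surgery coincide. Without the expression filter, endothelial calls were 6 higher and 9 lower, stellate and fibroblast calls 4 and 8, 1 lower each in Kupffer cells, NK cells with ILC1 and monocytes, and 7 members were more negative in endothelial than stellate cells. DESeq2's Wald test gave 5 higher in endothelial cells and 0 in monocytes. With batch as a term 2 rose and 4 fell in stellate cells and fibroblasts. Batch 2021.3 alone gave 11 lower in endothelial cells, 3 higher and 4 lower in stellate cells and fibroblasts, 1 more positive pericentral effect and 5 more positive endothelial effects. Zones set by sign gave 1 more positive pericentral effect, and the stellate cluster alone 0 more positive endothelial effects.

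Leaving out 1 library, calls ranged from 0 to 7 higher and 1 to 11 lower in endothelial cells, from 0 to 1 higher and 0 to 1 lower in stellate cells and fibroblasts, from 0 to 1 lower in Kupffer cells and in NK cells with ILC1, from 0 to 1 in either direction in monocytes and from 4 to 7 lower in the pericentral part. The interaction counts ranged from 0 to 5 higher and 2 to 4 lower between parts, and from 1 to 5 lower between classes.

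Reversed log2 changes were those of Plxnb2 (0.1195 with batch as a term, 0.1188 in batch 2021.3 alone) and Unc50 (0.089 and 0.08761, and 0.01337 with the replicate block) in Kupffer cells, Ntn4 in stellate cells and fibroblasts (-0.8272 and -0.8351), and Plxna4 (0.1175), Robo2 (0.3248), Ntn1 (-0.03525) and Ntn4 (-0.3824) in the stellate cluster alone. Plxnc1 between parts was 0.4532 in sham libraries alone. With 1 library left out, values ranged from -0.1 to 0.1647 for Sema6d and -0.1361 to 0.02075 for Unc50 in Kupffer cells, -0.4166 to 0.2212 for Ntn1 and -0.5462 to 0.9876 for Ntn4 in stellate cells and fibroblasts, and -0.2021 to 0.1042 for Plxnc1 between parts. For these the cause was not tested.

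The replicate block, over the 2 numbers that pIVCL and sham share, gave 2 higher and 4 lower in endothelial cells, with Sema6a (adjusted p = 0.178 in edgeR) and Sema6d (0.0987) no longer past the threshold. Deviations of pIVCL and sham libraries correlated between -0.0831 and 0.0831. With 2 sham libraries, each value for sham 1 returns with the opposite sign for sham 2, so the range is symmetric by construction. It cannot tell whether the numbers are paired, and the labels do not pair them. The stellate and fibroblast class had 70 to 330 cells per library and NK cells with ILC1 21 to 77, and the effect of these numbers on the calls was not tested.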

Other observations

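Guidance genes of the endothelial cluster led by Wnt9b and Rspo3 were not tested alone, and are given as levels. Sema3d had 46.1, 31.4 and 29.8 CPM there in the pIVCL libraries, against 205 and 241 CPM in the sham libraries. Ntn1 had 9.22, 14.0 and 22.4 CPM after pIVCL, against 92.7 and 88.1 CPM after sham surgery, and Plxnc1 had 134, 112 and 123 CPM after pIVCL, against 609.9 and 575 CPM after sham surgery. Flrt3 had 71.5, 38.4 and 74.6 CPM after pIVCL, against 14.1 and 13.9 CPM after sham surgery. The groups did not overlap for these 4 genes, which were picked after their values were seen, in 63, 55 and 48 pIVCL cells and 69 and 40 sham cells. The share of all genes without overlap is not given for this cluster. In endothelial cells as a whole it was 43.9% of all genes tested.

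Mesothelial cells numbered 16, 12 and 28 in the pIVCL libraries and 16 and 15 in the sham libraries. Flrt2, the most abundant guidance gene of these cells, had 1025, 1171 and 1406 CPM after pIVCL, against 298 and 991 CPM after sham surgery. Sema3c, a secreted semaphorin, had 694, 757 and 372 CPM after pIVCL, against 1747 and 866 CPM after sham surgery. The pIVCL libraries lay above both sham libraries for Flrt2 and below both for Sema3c. In each case the sham libraries differed from each other by more than the nearest pIVCL library differed from the nearer sham library. Neither gene, both picked after their values were seen, was tested. The share of all genes without overlap is not given for mesothelial cells. A cluster with Sema3c and the mesothelial marker Upk3b among its leading genes had markers of a second class and was left out. It held 1, 4 and 1 pIVCL cells and 12 and 13 sham cells, and its part in these levels was not tested.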
